A study of Mus musculus with 22 samples.

Results

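The libraries described here compare E14 mouse embryonic stem cells, an established line, that received an siRNA against the transcription factor gene Dux (siDux) with cells that received the siRNA called siNT, treated here as the control. They make up 6 of the 22 RNA-seq libraries of the series, 3 a side, and were taken by their titles: 1 siDux and 1 siNT library from the first of 2 deposited tables (called set 2 below) and 2 siDux and 2 siNT libraries from the second table (set 3). Set 1 is 8 other libraries that share a table with set 2. All cells were grown with leukemia inhibitory factor on gelatin, transfected with DharmaFECT reagent and collected on day 3, and every siDux cell also received siNT, while control cells received siNT alone. What NT stands for is not given in the labels, and neither is the siRNA sequence. E14 is 1 cell line, and no other line was compared. Other libraries of the series received siRNAs against the ribosomal protein genes Rpl14 or Rpl11, alone or in pairs with each other or with siDux. The question is which genes differ when Dux is depleted without any ribosomal protein knockdown, and whether they differ the same way in both tables.

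Dux is a double homeobox transcription factor made briefly in the 2-cell mouse embryo, at the time the embryo's own genome is switched on. It binds and activates a group of genes and endogenous retroviral repeats used at that stage, among them the Zscan4 cluster. In cultures of embryonic stem cells most cells do not use these genes, and a small and shifting minority, called 2C-like cells, does. Genes of this state include the Zscan4 zinc finger genes, known for a role in telomere maintenance, Usp17-like genes, which encode deubiquitinating enzymes, copies related to the translation initiation factor gene Eif1a, and Tdpoz genes, which encode proteins with TRAF and POZ domains.

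The measure is FPKM, in which fragments of a gene are scaled by its length and by the total of the library, and 24819 genes are listed. The tables resolve low genes very differently. In set 2, 30.1% and 30.5% of genes are listed at 0 in the siNT and siDux libraries, against 50.5% to 55.7% in the 4 libraries of set 3, and genes above 0 had a 10th percentile of 0.0626 and 0.0633 FPKM in set 2 and 1.08 to 1.58 FPKM in set 3. Over 5870 genes with a mean of at least 5 FPKM in the compared libraries of each set, the siNT and siDux libraries of set 2 correlated at r = 0.997 across genes, while replicates in set 3 correlated at r = 0.842 (siNT) and r = 0.85 (siDux). The median absolute difference between replicates of set 3 was 0.38 and 0.39 on the log2 scale, above the 0.06 between siNT and siDux in set 2. The 4 pairs of a siNT and a siDux library in set 3 correlated at r = 0.81 to r = 0.89, so the groups of set 3 did not separate from the replicates over all genes. Absolute read depth is unknown, because only FPKM were used. Markers of embryonic stem cells summed to 3460 FPKM in siNT and 3570 in siDux of set 2, and to 2070 and 1970 FPKM in siNT and 2150 and 1920 in siDux of set 3. Of the markers of other cell types, Gata6 and Sox17 (primitive endoderm), Cdx2, Elf5 and Gata3 (trophectoderm), T, Mixl1 and Gsc (mesendoderm) and Col1a2, Col3a1, Dcn and Postn (fibroblasts) are listed at 0 in all 4 libraries of set 3. With the other markers of these types, the sums in set 3 ran from 0.583 to 1.30 FPKM in siNT and 0 to 3.53 in siDux for primitive endoderm, from 2.77 to 6.46 and 4.43 to 5.47 for trophectoderm, and from 3.63 to 4.84 and up to 8.08 for fibroblasts. The neural markers, none at 0, summed to 15.0 and 11.5 FPKM in siNT and 7.66 and 14.8 in siDux of set 3, and to 6.13 and 5.65 in set 2. In set 2 the summed markers of primitive endoderm were 2.72 FPKM in siNT and 3.21 in siDux, those of trophectoderm 7.26 and 6.87, those of fibroblasts 10.7 and 9.0, and those of mesendoderm 0.784 and 1.11.

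The target itself was measured first. Dux was at 0.306 FPKM in the siNT library of set 2 and at 0.0546 FPKM in the siDux library, which is 17.9% of siNT, and it stood at 0.368 and 0.202 FPKM in the siNT libraries of set 1. The siDux library was therefore below all 3 siNT libraries of its table, at a level where 1 library a side gives no error. In set 3 Dux is listed at 0 in both siNT and both siDux libraries, so the siDux labels of that set cannot be checked on the target. Rpl14, the large-subunit ribosomal protein gene targeted elsewhere in the series, was at 1030 FPKM in siNT and 1090 FPKM in siDux of set 2. In set 3 Rpl14 was at 1360 and 1090 FPKM in siNT and at 1130 and 1190 FPKM in siDux, groups that overlap. Rpl11, the other ribosomal protein gene targeted in the series, was at 96.4% of siNT in the siDux library of set 2.

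Among the 23 gene lists the 2C-like genes had the median furthest from 0 in set 2, and the promoters of a pair from each of 2 families are shown because the results turn on these genes. Each line gives the 250 bases before the gene's start, 5′ to 3′ on the gene's strand, from RefSeq on build GRCm38.p6, and the capitals mark a match to TGATTCAA, part of the motif known for Dux, or to TATAAAAG, a TATA box. The windows are Zscan4c at chr7:11005495-11005744 (plus strand), Zscan4d at chr7:11166149-11166398 (minus), Usp17la at chr7:104856766-104857015 (plus) and Usp17lb at chr7:104842584-104842833 (minus).
Zscan4c: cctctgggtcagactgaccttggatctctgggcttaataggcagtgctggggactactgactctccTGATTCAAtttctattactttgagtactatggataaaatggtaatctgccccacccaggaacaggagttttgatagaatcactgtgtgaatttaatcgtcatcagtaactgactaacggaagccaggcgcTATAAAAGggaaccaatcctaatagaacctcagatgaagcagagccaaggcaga
Zscan4d: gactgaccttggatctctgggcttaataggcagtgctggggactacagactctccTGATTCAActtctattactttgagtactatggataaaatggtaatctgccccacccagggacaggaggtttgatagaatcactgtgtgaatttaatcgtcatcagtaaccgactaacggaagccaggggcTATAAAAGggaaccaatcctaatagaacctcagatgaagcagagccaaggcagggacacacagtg
Usp17la: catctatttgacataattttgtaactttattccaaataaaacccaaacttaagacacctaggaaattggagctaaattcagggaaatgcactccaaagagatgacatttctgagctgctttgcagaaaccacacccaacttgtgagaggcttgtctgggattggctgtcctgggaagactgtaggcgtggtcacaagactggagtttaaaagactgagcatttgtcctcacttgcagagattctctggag
Usp17lb: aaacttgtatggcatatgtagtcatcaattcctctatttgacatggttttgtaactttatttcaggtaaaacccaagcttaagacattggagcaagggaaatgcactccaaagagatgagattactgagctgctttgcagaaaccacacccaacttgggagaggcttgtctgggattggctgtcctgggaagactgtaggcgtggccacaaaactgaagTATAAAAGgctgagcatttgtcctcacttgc

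The promoters were alike within a family and not between the families. The longest run of identical bases was 55 between Zscan4c and Zscan4d and 47 between Usp17la and Usp17lb, against 7 to 9 bases between a Zscan4 and a Usp17-like promoter. Of the 43 list genes in the tables, 24 had a RefSeq promoter (25 windows). TGATTCAA, read on both strands, was found in 4 of these windows (Pramel6, Zscan4c, Zscan4d and Zscan4f) and in 0.539% of all 32851 promoters of that length. TATAAAAG was found in 7 (Usp17lb, Usp17lc, Usp17ld, Zscan4b, Zscan4c, Zscan4d and Zscan4f) and in 1.51% of all promoters. A longer palindrome of TGATT, any 1 base and AATCA, which can overlap TGATTCAA, was in 10 promoters (0.0304%) and in 0 of the list's windows. A match in these letters is a description of the window and not a site of binding.

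With siDux, genes of the 2C-like state were lower across the list in set 2, and most of those that could be read in set 3 were lower there too. Of 60 list entries, 43 are in the tables. In set 2, 29 of the 43 were at least 1.5-fold lower with siDux on the log2(FPKM + 1) scale, against 0.379% of all genes, and 0 were at least 1.5-fold higher, against 0.286%. In set 3, 16 were at least 1.5-fold lower, against 10.7% of all genes, and 1 (Pramel6) was higher, against 10.9%. In both sets together 14 were lower, against 0.0886% of all genes, and 0 were higher in both, against 0.0766%. The median difference of the list was -0.98 in set 2 and 0.00 in set 3, where 20 members did not differ at all, mostly because they are listed at 0. Over the 26 members that passed the filter for testing, the set 3 median was -0.87. That filter also counts the siRpl14 libraries, so members can pass through groups where they are high. With every member above 0 in any of the 8 fitted libraries, the set 3 median was -0.55 over 32 members, a choice that still counts the siRpl14 libraries. The median of all genes was 0.00 in both sets. In bulk RNA, fewer 2C-like cells and less of these transcripts per cell cannot be told apart.

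Most members were left at a like share of their siNT level in set 2. Of the 25 list members with at least 1 FPKM in siNT, 24 were lower with siDux, against 45.7% of all genes at that level. In 20 the siDux library was at or under 10% of siNT, against 0.304%, and the median remaining level was 6.81% of siNT. Members and genes enter these counts by their level in this same siNT library, which favours a fall. Over all 43 members without that choice, 38 were lower with siDux and 2 higher, against 33.2% and 39.5% of all genes. The siNT library of set 2 held more of these transcripts than the siNT libraries of set 1, yet 23 of the 25 were lower with siDux than in all 3 siNT libraries of the table, against 22.7% of genes at that level. The count of members at least 1.5-fold lower was 22 with all 3 siNT libraries as the control, against 0.737% of all genes, and 20 with those of set 1 alone, against 1.87%. With 1 library a side, set 2 has no replicate check of its own.

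**Figure D1:**
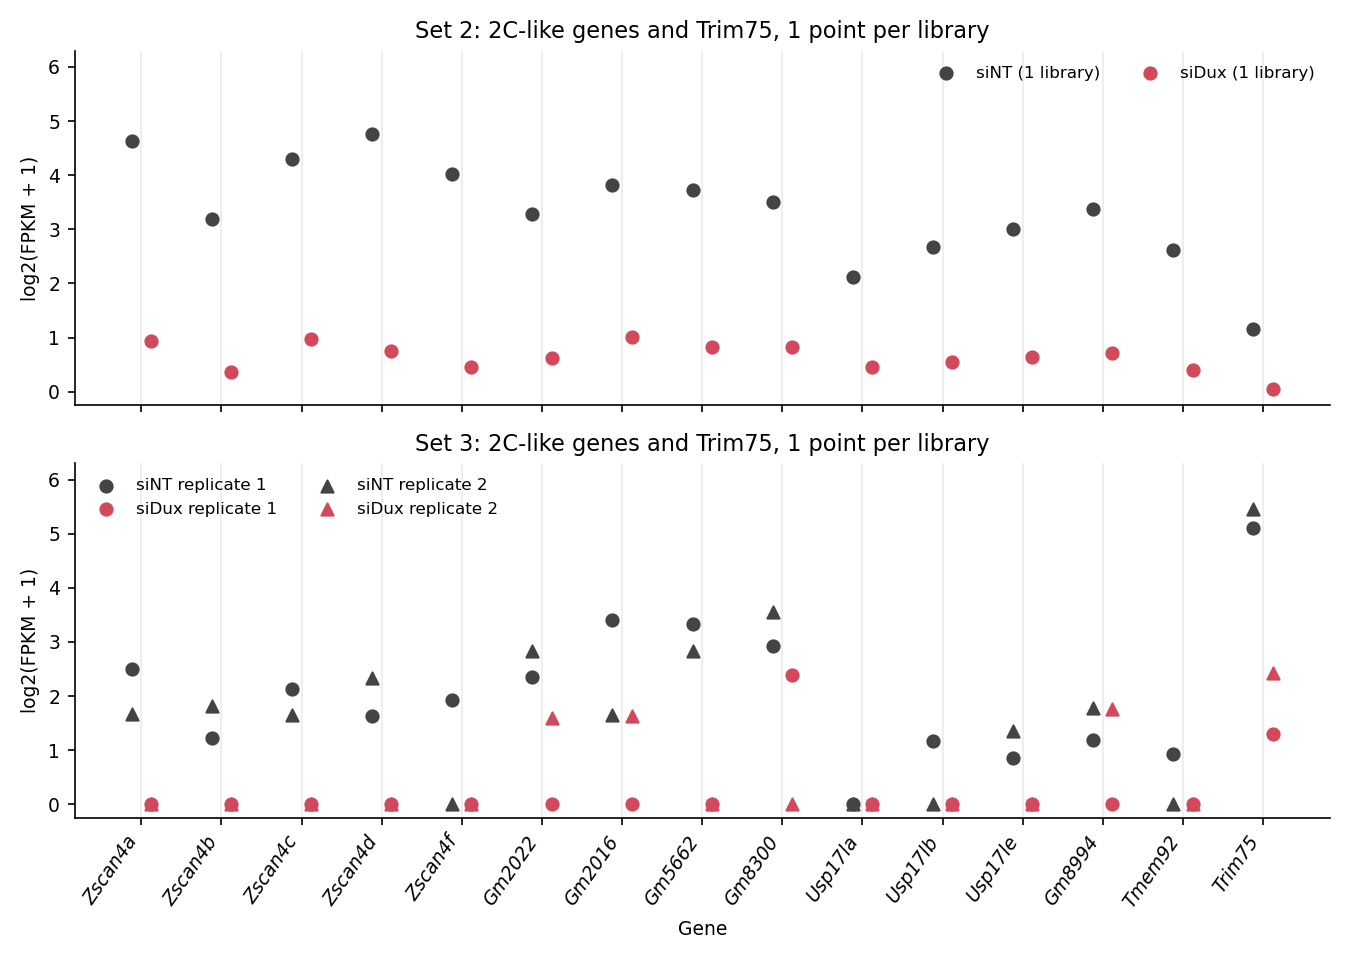
Level of 14 genes of the 2C-like list and of Trim75 in each siNT (grey) and siDux (red) library, as log2(FPKM + 1), with set 2 above and set 3 below and 1 point per library. In set 2 every siDux point lies below its siNT point, and in set 3 the siDux points of the Zscan4 genes lie at 0.

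The Zscan4 genes were all at least 1.5-fold lower in both sets. Zscan4d was at 26.1 FPKM in siNT and 0.688 in siDux of set 2, and at 2.09 and 4.04 FPKM in siNT of set 3 against 0 in both siDux libraries. Zscan4c was at 18.6 and 0.966 FPKM in set 2, and at 3.37 and 2.14 FPKM in siNT of set 3 against 0 in both siDux libraries. For both genes every siDux library was below every siNT library of its table. Zscan4a was at 23.9 and 0.926 FPKM in set 2, and at 4.62 and 2.19 FPKM in siNT against 0 and 0 in siDux of set 3. Zscan4b was at 8.1 and 0.281 FPKM in set 2, and at 1.34 and 2.54 FPKM against 0 and 0 in set 3. Zscan4f was at 15.2 and 0.372 FPKM in set 2, but in set 3 only siNT replicate 1 held it, at 2.78 FPKM, and the other siNT library overlapped siDux at 0. The 5 genes summed to 91.8 FPKM in siNT and 3.23 in siDux of set 2, a remaining level of 3.52%, and to 14.2 and 10.9 FPKM in siNT and 0 in both siDux libraries of set 3. Between 44.8% and 79.7% of the 50-base stretches of each gene's transcripts also occur in another gene of the family, so the split of reads between the 5 genes is uncertain and the sum is the firmer value.

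Usp17-like genes and the Eif1a-like copies followed. The 5 Usp17-like genes summed to 19.2 FPKM in siNT and 1.61 in siDux of set 2, or 8.4% of siNT. Usp17lb was at 5.41 and 0.465 FPKM in set 2, and in set 3 at 1.26 and 0 FPKM in siNT and 0 in both siDux libraries. Usp17la was at 3.33 and 0.365 FPKM in set 2 and is listed at 0 in all 4 libraries of set 3. Set 3 held little of this family, with sums of 3.13 and 1.55 FPKM in siNT and 0 in both siDux libraries. The 7 Eif1a-like copies summed to 46.1 FPKM in siNT and 3.13 in siDux of set 2 (6.8%), and to 36.0 and 33.5 FPKM in siNT and 4.21 and 6.17 in siDux of set 3, with no overlap. Gm5662 was at 12.2 and 0.767 FPKM in set 2, and at 9.07 and 6.08 FPKM in siNT against 0 and 0 in siDux of set 3, a fitted difference of -3.08 ± 0.67 (SE; limma, adjusted p = 0.471). Where a group is listed at 0 in every library, as siDux is here, the fitted difference depends on the pseudocount of 1 FPKM and gives no fold. Gm2022 was at 8.76 and 0.535 FPKM in set 2, and at 4.10 and 6.16 FPKM in siNT against 0 and 2.03 in siDux of set 3. Gm8300 was at 10.3 and 0.766 FPKM in set 2, and at 6.56 and 10.8 FPKM in siNT against 4.21 and 0 in siDux of set 3. All 3 genes were lower with siDux in both tables with no overlap. From 9.19% to 96.6% of 50-base stretches in this family, and 15.3% to 50.4% in the Usp17-like family, occur in another member.

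The other list members were low in level. The Tdpoz genes summed to 2.36 FPKM in siNT and 0.187 in siDux of set 2 (7.92%) and are listed at 0 throughout set 3. Zfp352, a zinc finger gene of the 2-cell stage, was at 0.826 and 0.0413 FPKM in set 2 and at 0 in set 3. Tmem92, a transmembrane protein gene, was at 5.13 and 0.313 FPKM in set 2, and in set 3 only siNT replicate 1 held it, at 0.901 FPKM. Arg2, the mitochondrial arginase gene, was at 2.23 and 0.332 FPKM in set 2, while in set 3 siNT (1.84 and 3.48 FPKM) and siDux (0 and 3.38 FPKM) overlapped. Members that did not follow included Pramel6, at 1.47 and 0.763 FPKM in set 2 and held in set 3 by siDux replicate 2 alone, at 2.79 FPKM. Others were Zfp750, at 2.18 and 2.57 FPKM in set 2, and Fbxo15, an F-box gene also used in stem cells, at 194 and 132 FPKM in set 2 and at 64.3 and 55.7 against 68.4 and 41.9 FPKM in set 3. Fbxo15 is by far the highest of the list, and its sum with the other members outside the 4 families was 60.2% of siNT in set 2. Tcstv1 and Tcstv3, which the naming rule also holds, are among the 17 entries not analysed here.

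**Figure D2:**
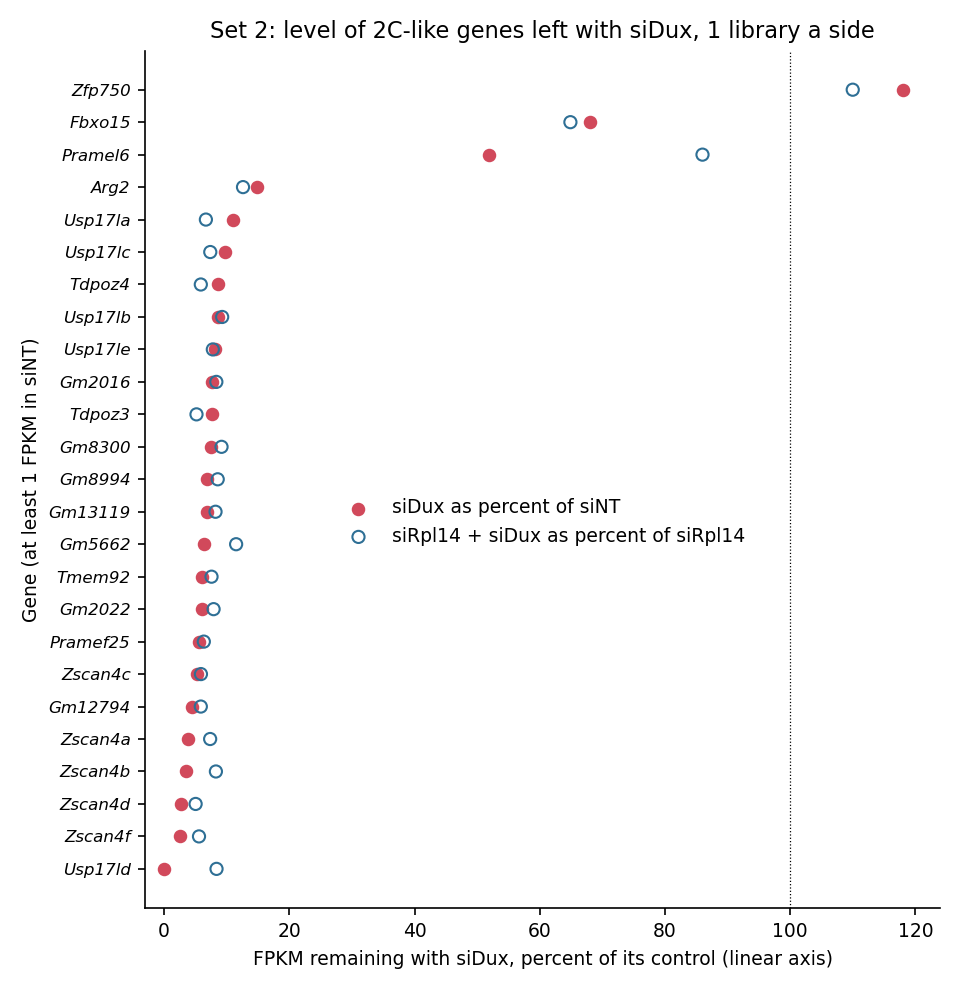
Remaining level of each 2C-like gene with at least 1 FPKM in siNT of set 2, as a percentage of its control on a linear axis, with 1 library a side. Filled points are siDux against siNT and open points siRpl14+siDux against siRpl14; of the filled points 20 lie at or under 10%, and Zfp750 (118%), Fbxo15 (68%) and Pramel6 (51.9%) stand apart.

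The tests separate what set 2 and set 3 can show. In set 3, limma called 0 of the 26 tested list members, and over all 13189 genes tested 1 was called higher (0.00758%) and 0 lower (0.0%), with 660 genes at an unadjusted p under 0.05, 6 of them on the list. The smallest adjusted p in the list was that of Gm5662. Only 4 libraries are compared, and an exact two-sided permutation test of 2 against 2 cannot go below p = 0.333. By level alone, 12 of the 22 list members above 0 in a siNT library of set 3 are listed at 0 in both siDux libraries, against 10.1% of all genes above 0 in siNT and 15.6% of those with a siNT mean of up to 10 FPKM. Members and genes enter these counts only by being above 0 in siNT, which favours a fall. The reverse, 0 in both siNT libraries and above 0 in siDux, held for 1 member, beside 5.03% of all genes. Zscan4 and Usp17-like members share transcript stretches, so the 12 are not separate observations. In 11 of the 43 list members both siDux libraries lay below both siNT libraries, against 8.74% of all genes. In 0 both lay above, against 7.88%. Among genes with a mean of at least 1 FPKM in each set these shares were 17.7% and 15.1%. The labels do not say that replicates were separate cultures, so these p-values measure only the spread between samples, which may be technical.

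In set 2 a test was possible only by lending the spread of set 1 to its single libraries, which assumes that a lone library varies like the groups of set 1 and is no replicate check. By that fit 17 of 12375 genes were lower (0.137%) and 1 was higher (0.00808%), with 121 at an unadjusted p under 0.05. Of the 17 lower genes 15 are on the 2C-like list. The genes outside the list are Gm5039 and LOC105246046. In set 3, 14 of the 17 were lower with siDux, 0 were higher and 3 are listed at 0 in all 4 libraries, where 29.4% of all genes were lower and 28.8% higher. Both siDux libraries lay below both siNT libraries in 10 of the 17, against 8.74% of all genes and 17.7% of those with a mean of at least 1 FPKM in each set. Of all 24819 genes, 10374 do not differ in set 3, which lowers the shares over all genes. Gm5039 was at 14.5 FPKM in siNT and 0.479 in siDux of set 2, and at 15.4 and 2.56 FPKM against 1.68 and 0 in set 3, with the groups of set 3 apart. The gene called higher was Snord15b, a small nucleolar RNA gene listed at 0 in siNT and at 34.4 FPKM in siDux of set 2, but also at 19.3 and 18.8 FPKM in siNT of set 1, so a lone library can lie outside the spread lent to it, and the 17 are counted without their p-values. Of the 165 genes at least 1.5-fold apart in set 2 (94 lower and 71 higher), 22 are small nucleolar or microRNA genes.

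Trim75, a tripartite motif gene outside every list and singled out after its values were seen, was at 33.5 and 42.7 FPKM in siNT and at 1.46 and 4.38 FPKM in siDux of set 3. The groups were far apart, at -3.42 ± 0.45 (limma, unadjusted p = 6.86e-05, adjusted p = 0.181). In set 2 Trim75 was at 1.24 FPKM in siNT and 0.0381 in siDux, or 3.07% of siNT. Its siNT level was far lower in set 2 than in set 3, and only differences within a table are compared because a shared scaling of the tables is not stated. Other genes also differed widely between the tables in siNT. Bysl was at 26.5 FPKM in set 2 and at 1030 and 1140 in set 3, and Trim28 at 855 and at 59.6 and 67.2. Whether both tables share a gene annotation and processing is not stated, and what this does to same-gene comparisons was not tested.

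Genes were then counted as moving the same way when they differed by at least 1.5-fold with 1 sign in both sets and had a mean of at least 5 FPKM in each. Of 5870 genes, 6 did so: 1 lower (Gm8300, 0.017%) and 5 higher (0.0852%). The 5 were Perp, Kbtbd11, Cdkn1c, S100a16 and Hspb2, and 1 gene, Gm16104, moved in opposite directions. The count is limited by set 2, where 11 of these genes (0.187%) differed by 1.5-fold, 4 lower (0.0681%) and 7 higher (0.119%), against 1356 (23.1%) in set 3, and across genes the differences of the 2 sets correlated at r = 0.129. With a mean of at least 1 FPKM, 25 of 10109 genes moved the same way and 3 the opposite way. In set 2 alone, 24 of the 10109 genes were lower (0.237%) and 26 higher (0.257%). Of the 12 lower in both sets (0.119%) 9 are on the 2C-like list, and the others are Gm5039, Efcab7 and Dppa3. Dppa3, a gene of naive stem cells and the early embryo, was at 8.32 and 4.99 FPKM in set 2 and at 4.95 and 4.61 against 2.97 and 0 FPKM in set 3. None of the 13 higher in both sets (0.129%) is on the 2C-like list. With the mean of the 3 siNT libraries as the control of set 2, 25 genes moved the same way in place of 6 at a mean of 5 FPKM.

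**Figure D3:**
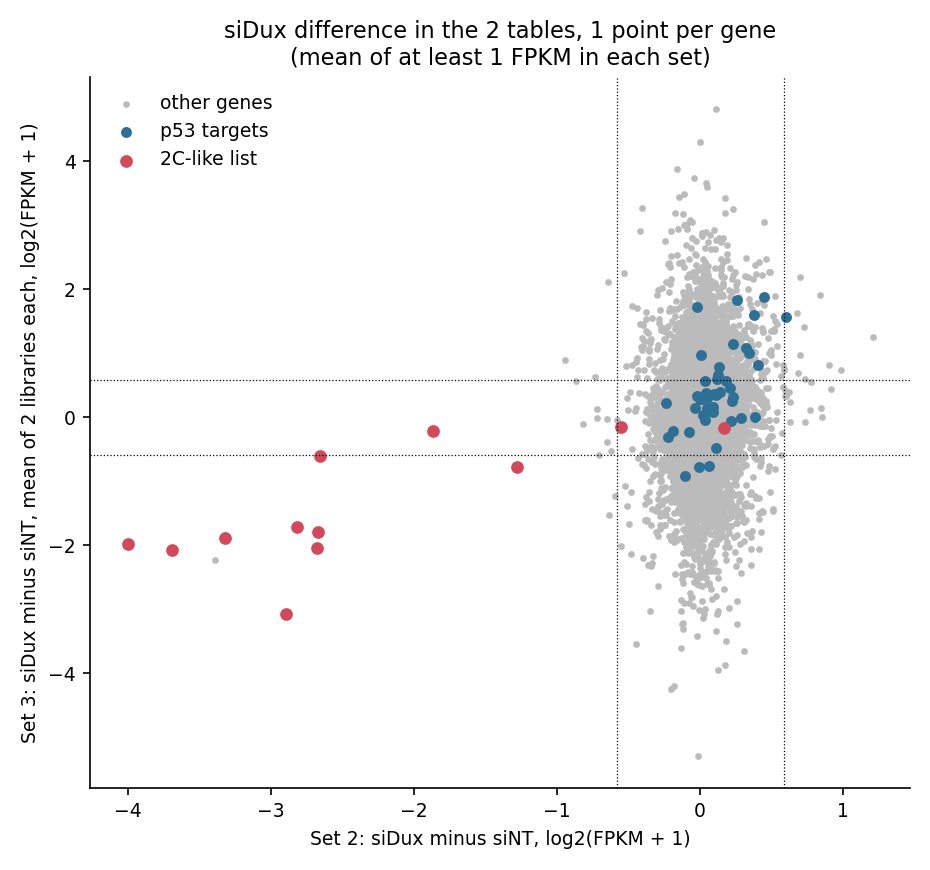
Difference of siDux minus siNT for 10109 genes with a mean of at least 1 FPKM in each set, as log2(FPKM + 1), set 2 on the horizontal and set 3 on the vertical axis, with dotted lines at 1.5-fold. Grey points spread over several log2 units in set 3 and stay near 0 in set 2, while 9 of the 2C-like genes (red) lie in the lower left, beyond the lines in both sets.

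Among the 5 genes higher in both tables, groups were apart in set 3 in 3, against 15.3% of genes at that mean, but these 5 were chosen for a difference there. Perp, a membrane protein gene and known target of p53, was at 10.7 FPKM in siNT and 16.8 in siDux of set 2, and at 4.98 and 3.10 FPKM in siNT against 15.9 and 11.8 in siDux of set 3. Its set 3 difference was 1.57 ± 0.30 (limma, unadjusted p = 0.000775, adjusted p = 0.347). Cdkn1c, which encodes the cell cycle inhibitor p57, was at 17.2 and 28.4 FPKM in set 2, and at 7.28 and 6.67 against 12.3 and 17.3 FPKM in set 3. Hspb2, a small heat shock protein gene, was at 4.42 and 9.72 FPKM in set 2, and at 22.6 and 14.0 against 27.6 and 33.4 FPKM in set 3. In these 3 genes both siDux libraries of set 3 were above both siNT libraries, but Hspb2 stood at 13.8 and 12.1 FPKM in siNT of set 1, above siDux of set 2. Kbtbd11 was at 4.53 and 7.87 FPKM in set 2 and overlapped in set 3, at 7.38 and 4.84 against 16.1 and 6.45 FPKM. S100a16, a calcium-binding protein gene, rested on siDux replicate 2 in set 3, with the other 3 libraries listed at 0. None of the 5 passed the test in set 3.

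The single gene that limma called in set 3 was Gm9748, at 0 in both siNT libraries and at 18.8 and 18.6 FPKM in siDux (4.30 ± 0.32, limma, adjusted p = 0.0141). In set 2 it was effectively at 0 in both libraries. The call was lost when any 1 of the 4 compared libraries was left out (limma, adjusted p = 0.0597 to 0.174), with a pseudocount of 5 FPKM (adjusted p = 0.084) and with the 4 libraries fitted alone (adjusted p = 0.594).

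Among the other 22 lists, with 802 entries in the tables, 5 members were at least 1.5-fold apart in set 2 (2 lower and 3 higher), and limma called 0 in set 3. With 0.379% of all genes lower and 0.286% higher in set 2, this count is near that of any genes. The 5 were Dppa3 and Hist1h4j lower and Perp, Hist1h2bc and Cryab higher. The medians of the 22 lists lay between -0.13 and 0.14 in set 2, and between -0.30 and 0.79 in set 3 over members with a mean of at least 5 FPKM. The highest set 3 median was that of the clustered histone genes, of which 6 reach that mean, with 4 of them higher and 2 lower in both sets. Over all 55 histone members the set 3 median was 0.00, and 7 were higher and 7 lower in both sets. By 1.5-fold in set 3, 13 of the 55 were lower and 7 higher, against 10.7% and 10.9% of all genes. Hist1h1c, a linker histone gene, was at 42.8 and 56.9 FPKM in set 2, and at 27.6 and 33.7 against 52.1 and 91.3 FPKM in set 3 (1.15 ± 0.31, limma, adjusted p = 0.682). Pou5f1, the core pluripotency factor, was at 989 and 1090 FPKM in set 2, and at 789 and 677 against 830 and 727 FPKM in set 3. Nanog was at 449 and 425 FPKM in set 2, and at 320 and 352 against 333 and 330 FPKM in set 3. Sox2 was at 224 and 221 FPKM in set 2, and in set 3 at 96.0 and 91.7 FPKM in siNT against 126 and 108 in siDux, groups that are apart by 0.31 ± 0.22 (limma, adjusted p = 0.988). The differences of these stem cell factors stayed small beside those of the 2C-like genes.

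Of 42 known regulators of the 2C-like state 0 differed by 1.5-fold in set 2, where 0.379% of all genes were lower and 0.286% higher, so this count does not set them apart from other genes. In set 3, 2 were lower and 2 higher, against 12.4% and 10.7% of genes with a mean of at least 5 FPKM in each set. Of the 42, 39 reach that mean. In 11 both siDux libraries were below both siNT libraries, and in 3 both were above, against 19.2% and 15.3% of genes at that mean. Dppa2, which is known to act upstream of Dux, was at 69.8 and 67.1 FPKM in set 2, and at 31.7 and 26.7 against 28.9 and 26.7 FPKM in set 3. Dppa4, its partner, was at 113 and 108 FPKM in set 2, and at 42.8 and 38.4 against 43.8 and 31.3 FPKM in set 3. Trim28, a corepressor of retroviral repeats, was at 855 and 857 FPKM in set 2, and at 59.6 and 67.2 against 54.4 and 55.2 FPKM in set 3. Trp53, which encodes p53, was at 197 and 213 FPKM in set 2, and at 27.9 and 31.4 against 57.4 and 20.8 FPKM in set 3, where siDux surrounds siNT.

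The p53 targets, genes of arrest, repair and cell death that p53 activates, were more often higher than lower with siDux, by small amounts. Of 48 members, 37 were higher in set 2, against 39.5% of all genes, 30 were higher in both sets, against 16.4% of all genes, and 6 were lower in both, against 14.1%. Those shares are lowered by genes without a difference, 6792 of them in set 2. At a mean of at least 1 FPKM in each set, 28.4% of genes were higher in both sets and 25.4% lower. Among the 27 with a mean of at least 5 FPKM in each set, 17 (63.0%) were higher in both, against 26.9% of all such genes, and 3 (11.1%) were lower in both, against 28.0%. The median difference over the 48 was small, at 0.10 in set 2 and 0.31 in set 3, and 0 members were called by limma. Among the 44 with a mean of at least 1 FPKM in each set, 13 were at least 1.5-fold higher in set 3, against 15.8% of such genes, and 3 lower, against 16.2%. Both siDux libraries of set 3 were above both siNT libraries in 16 of the 44, against 15.1% of such genes, and below both in 5, against 17.7%. In set 2, 15 of the 44 were above all 3 siNT libraries of the table, against 27.1%, and 5 below all 3, against 21.8%.

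Fas, a death receptor gene, was at 0.0319 and 0.417 FPKM in set 2, and at 0 in both siNT against 3.20 and 2.54 FPKM in siDux of set 3. Zfp365, a zinc finger gene, was at 8.18 and 11.5 FPKM in set 2, and at 1.49 and 1.35 against 5.23 and 11.6 FPKM in set 3. Ccng1, which encodes cyclin G1, was at 68.5 and 77.6 FPKM in set 2, and at 55.3 and 51.5 against 78.9 and 79.7 FPKM in set 3. In these 3 genes every siDux library was above the siNT libraries of its set. Their set 3 differences were 1.95 ± 0.65, 1.87 ± 0.58 and 0.56 ± 0.23 (limma, adjusted p = 0.865, 0.863 and 0.985). All 3 differed by less than 1.5-fold in set 2 and are named here outside the naming rule, for lying above siNT in both sets. The 6 members lower in both sets include Ccng2, at -0.01 in set 2 and -0.785 in set 3, and Aen, at -0.075 and -0.234. In set 1, siNT replicate 1 held 0.475 FPKM of Fas and 84.9 FPKM of Ccng1, above siDux of set 2. Mdm2, the ubiquitin ligase gene of the p53 feedback loop, was at 51.4 and 55.7 FPKM in set 2, and in set 3 at 20.2 and 14.9 against 33.7 and 14.7 FPKM. Cdkn1a, which encodes the inhibitor p21, was at 45.3 FPKM in siNT of set 2 and at 111% of that with siDux, and in set 3 at 17.1 and 24.6 against 42.2 and 17.4 FPKM. For Mdm2 and Cdkn1a siDux replicate 1 was high and replicate 2 was not, and over the leave-outs and other settings their set 3 difference ran from -0.23 to 0.92 and from -0.22 to 1.00.

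**Figure D4:**
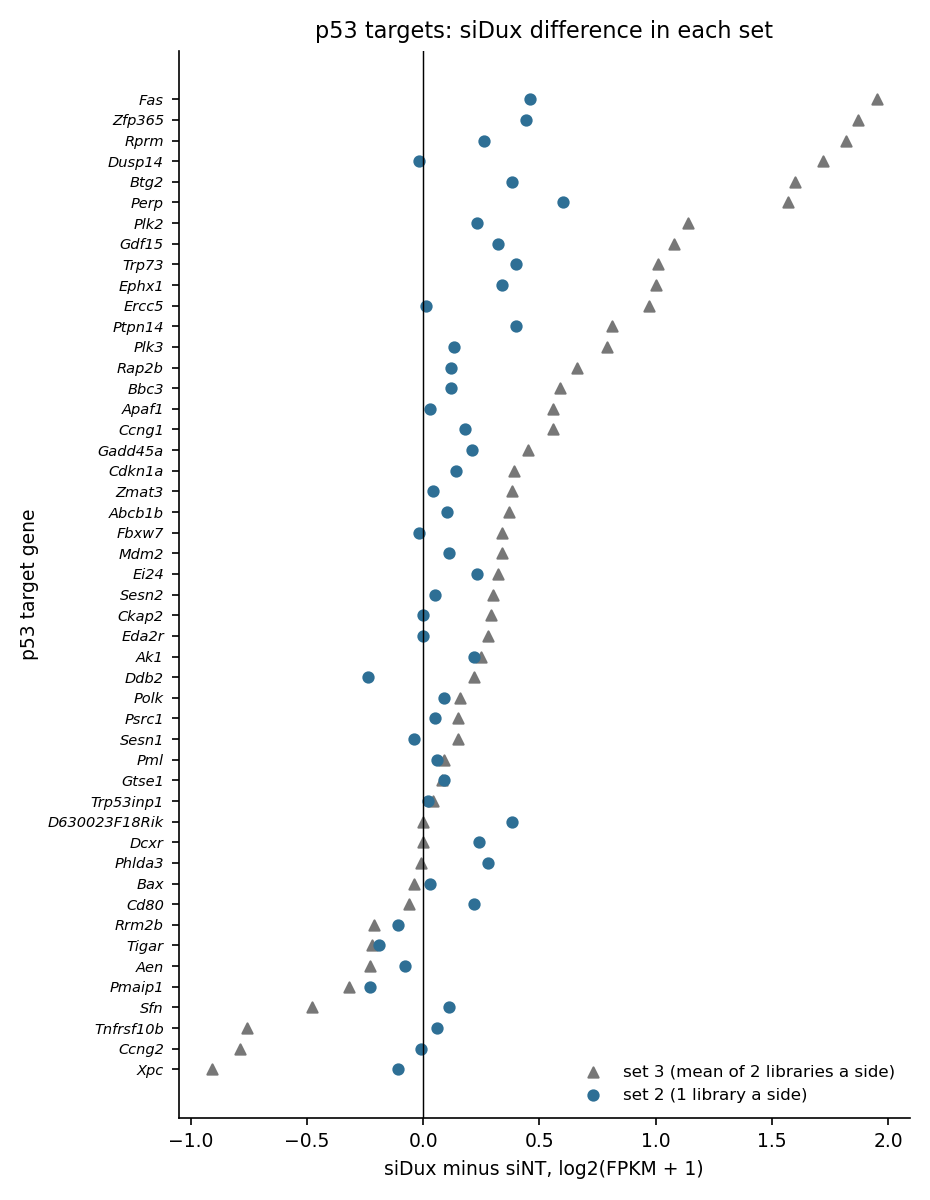
Difference of siDux minus siNT, log2(FPKM + 1), for each of the 48 p53 targets, ordered by set 3 (triangles, mean of 2 libraries a side), with set 2 as circles (1 library a side). Of the 48, 30 lie to the right of 0 in both sets, with medians of 0.10 and 0.31.

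Cholesterol synthesis, glycolysis and hypoxia, integrated stress response and S phase genes were lower in both sets in a larger share than all genes, by small amounts. Of 17 cholesterol synthesis genes with a mean of at least 5 FPKM, 12 (70.6%) were lower in both sets, against 28.0% of all such genes. Over all 24 list members in the tables, 15 were lower and 3 higher in both sets. By 1.5-fold in set 3, however, 4 were lower and 6 higher, against 10.7% and 10.9% of all genes. Msmo1, a sterol oxidase gene, was at 42.8 and 32.8 FPKM in set 2, and at 53.8 and 65.3 against 43.5 and 26.2 FPKM in set 3. Fdft1 was at 33.2 and 30.6 FPKM in set 2 and overlapped in set 3, at 62.2 and 55.5 against 51.7 and 59.2 FPKM. At a mean of at least 5 FPKM, 16 of 24 glycolysis and hypoxia genes (66.7%) were lower in both sets. So were 17 of 30 integrated stress response genes (56.7%) and 15 of 33 S phase genes (45.5%). Pkm, which encodes pyruvate kinase, was at 2320 and 2170 FPKM in set 2, and at 1430 and 1170 against 1230 and 1090 FPKM in set 3, groups that overlap. None of the members of these 4 lists reached 1.5-fold in set 2 or passed the test in set 3, and the list medians in set 2 were -0.13, -0.09, -0.05 and -0.01. Of 8 genes of the RNA interference machinery 6 (75.0%) were higher in both sets, against 26.9% of all such genes, with a median over the 8 of 0.05 in set 2.

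**Figure D5:**
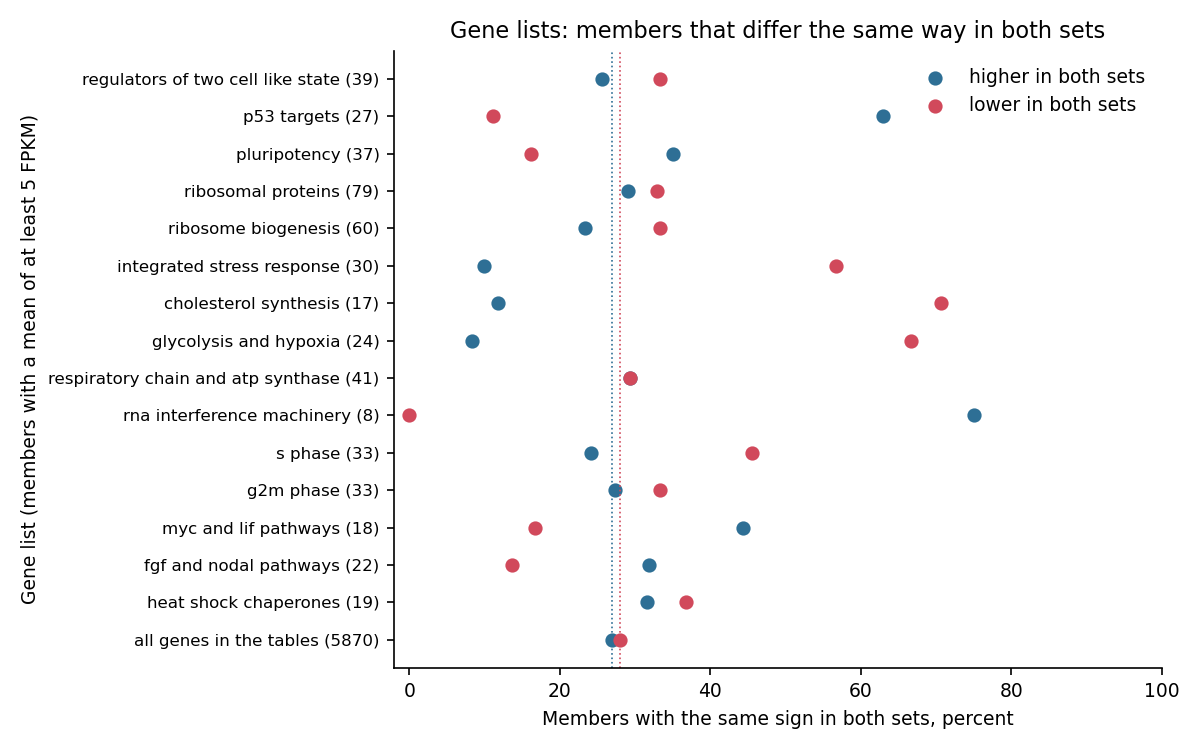
Percentage of the members of each gene list, among those with a mean of at least 5 FPKM in each set (number in brackets, lists with at least 8), that were higher (blue) or lower (red) with siDux in both sets. The dotted lines give all 5870 genes at 26.9% higher and 28.0% lower, and the points furthest above them are RNA interference machinery (75.0%) and p53 targets (63.0%) among the higher, and cholesterol synthesis (70.6%), glycolysis and hypoxia (66.7%) and the integrated stress response (56.7%) among the lower.

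The siDux difference was last set beside the same difference in cells that also received siRpl14. In set 2 the Zscan4 genes summed to 184 FPKM with siRpl14 and 11.2 with siRpl14+siDux, a remaining level of 6.11%, beside 3.52% without siRpl14. The Usp17-like sum was at 8.01%, beside 8.4%, the Eif1a-like sum at 9.27%, beside 6.8%, and the Tdpoz sum at 5.47%, beside 7.92%. In set 3 the Zscan4 sum was 38.4 and 45.1 FPKM with siRpl14 and 1.99 and 7.35 with siRpl14+siDux. The interaction test in set 3 (limma), which asks whether the siDux difference changes with siRpl14, called 2 of 13189 genes (0.0152%), Mir6363 and Gm9748, with 699 at an unadjusted p under 0.05. Of the 26 list members tested 0 were called, 3 had an unadjusted p under 0.05 and the smallest adjusted p was 0.898, which does not show that the differences are equal.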

How the data were processed

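Libraries were made with a stranded mRNA kit from DNase-treated, column-purified total RNA, per the labels' protocols. The authors deposited FPKM for 24819 genes in 2 tables. STAR, Cuffnorm and build mm9 are named in the submitters' processing notes. The sources used here do not give versions, gene annotation, strand setting or normalization. Sets 1 and 2 were told apart by title style alone. 0 columns belong to no listed sample.

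Values were compared within a table as log2(FPKM + 1), which understates differences of low genes. Set 3 was fitted with limma 3.58.1 (R 4.3.3, statmod 1.5.0; trended, robust) over its 8 libraries of siNT, siDux, siRpl14 and siRpl14+siDux. The filter asked for 1 FPKM or more in 2 or more libraries. Benjamini-Hochberg adjustment ran over every gene kept, with a threshold of 0.05. The fit was tried on simulated data with changes placed only in genes with a mean of at least 50 FPKM. The 2C-like members other than Fbxo15 reach a mean of at most 8.66 FPKM in siNT of set 3. The simulation therefore does not show how the fit performs on them. Set 2, with 1 library a side, was described, and tested once with limma over all 12 libraries of its table. Promoter windows came from RefSeq on GRCm38.p6, matched by symbol. Shared transcript stretches of 50 bases came from an annotation of another build than the files'. Tables were handled with Python 3.11.15 (pandas 2.3.3, numpy 2.4.6).

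The naming rule took the siRNA targets, genes moving the same way with set 3 groups apart, genes past the threshold, up to 4 members per list, and a fixed group of 2C-like, pluripotency and p53 genes. The 23 lists hold 875 entries, of which 30 are not analysed here. The members, lists and rules were chosen with earlier results of these data known. Other settings covered the pseudocount, filters, scaling, the spread, a replicate block, leave-outs, the fold and the control.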

Additional observations from a re-analysis of the deposited data

Results flagged for a closer look

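Limma's interaction test in set 3 called 2 genes. Both calls rest on groups listed at 0 in set 3, and both genes were near 0 throughout set 2. For Mir6363, a microRNA gene, the interaction was 10.83 ± 0.59 (adjusted p = 0.00134): it is listed at 0 in the siNT, siDux and siRpl14 libraries and at 1770 and 1870 FPKM with siRpl14+siDux. In set 2 it is listed at 0 in siNT, siDux and siRpl14 and stood at 0.000397 FPKM with siRpl14+siDux. For Gm9748 the interaction was -4.78 ± 0.45 (adjusted p = 0.042): it was at 0 and 0 FPKM in siNT, 18.8 and 18.6 in siDux, 66.3 and 49.7 in siRpl14 and 45.8 and 36.1 in siRpl14+siDux. In set 2 it was at 0.0883 FPKM with siRpl14 and effectively at 0 in the other 3 libraries.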

How the results depend on the processing

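Results rested on few libraries. The 1 gene called in set 3, Gm9748, was higher. With a pseudocount of 5 FPKM it was not called, and 2 other genes, both lower, were. Without trend or robust weights 3 genes were called, 1 higher (Gm9748) and 2 lower. With the siNT and siDux libraries alone 0 were called, and the call of Gm9748 did not hold when 1 library was left out. The 2 interaction calls became 1 with a pseudocount of 5 FPKM, 1 without a filter, 13 without trend or robust weights, and 0 to 2 when 1 library was left out. With the replicate number as a block, the counts were 0 and 1, and the median of the 2C-like list stayed at -0.87. Deviations of same-numbered libraries correlated at only 0.0383 to 0.0613 over 7123 genes. Replicates of set 3 differ so widely that this neither shows nor excludes a pairing by number. The 165 genes at least 1.5-fold apart in set 2 compare with 18 called with the spread of set 1.

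The 6 genes moving the same way became 1 at 2-fold, 42 at the smallest fold tried, 25 at a mean of 1 FPKM, 0 at a mean of 20 FPKM, 3 with a pseudocount of 5 FPKM, 25 with 3 siNT libraries as the control, and 4 to 7 when 1 library was left out. The median of the 2C-like list in set 3 (-0.87) was -2.29 with a pseudocount of 0.1 FPKM and -0.27 with 5 FPKM. It was -0.55 with every member above 0 in any fitted library, and -1.72 at a mean of 5 FPKM. With 1 library left out it ran from -1.26 to -0.82. With the siNT and siDux libraries alone it was -1.54 over 15 members. There a member at 0 in both siDux libraries could pass the filter only through siNT, which favours a fall. In set 2 (-0.98) it was -2.80 with a pseudocount of 0.1 FPKM, -0.30 with 5 FPKM and -0.60 with 3 siNT libraries as the control, a setting added after seeing the data. The count of list members lower in set 2 fell from 29 to 16 with a pseudocount of 5 FPKM. The p53 targets higher in both sets numbered 24 to 31 over all settings, chosen after seeing the data. For the other 22 lists, 17 medians moved by more than the replicate spread over the settings and 379 by less. Gm9748 lost its call in 7 settings, among them the block (adjusted p = 0.0514, limma). No result called under the main settings turned direction, but other genes were called in its place under some settings. The cause of each lost call was not tested.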
